A study of Mus musculus with 160 samples.

Results

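The comparison is between the livers of mice fed a vegan diet and the livers of mice fed a Mediterranean diet. It takes in every liver library that the labels place on either diet, which is 16 of the 160 RNA sequencing libraries of the study and 16 of its 32 liver libraries. All animals were male. The inbred strains were SJL, DBA/2J, A/J and C57BL/6J, with 2 mice from each of the 4 strains on each diet, so that each diet had 8 mice. The mice had been kept on chow, were moved to their diet when 12 weeks old, and gave their organs 6 weeks later, when 18 weeks old. Neither group is a chow-fed control: per the labels both diets are mouse versions of human diets, equal in energy and in macronutrients, and what sets them apart is where the nutrients come from. The other liver libraries are from mice on an American or a vegetarian diet. They entered the model for their information on strain and spread. The question asked of the data is which liver transcripts differed between these 2 diets, matched per the labels in energy and macronutrients. Mice are named here by the numbers in the labels, and the mice of the 2 diets are different animals.

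The liver takes up sterols, amino acids and plant compounds straight from the gut and adjusts the matching enzymes by transcription. When little sterol reaches liver cells, the membrane-held factor SREBP-2 is released and switches on the genes of cholesterol synthesis. Foreign compounds and some bile acids bind the receptors PXR and CAR, which control cytochromes P450 of the Cyp3a and Cyp2b families and several transporters, while amino acid breakdown and the urea cycle follow the protein supply. The liver also makes most plasma proteins, which are folded in the endoplasmic reticulum (ER) with the help of chaperones such as BiP.

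Libraries held 18.6 to 29.9 M counts. The labelled tissue matched its markers: the 8 hepatocyte markers, albumin (Alb) among them, summed to a median of 104347 counts per M library counts (CPM) on the Mediterranean diet and 108695 on the vegan diet. Of 10 markers of kidney and gut, Kap, Sis and Reg3g were at 0 in all 16 libraries, while Fabp2 had a median of 81.2 CPM and was above 0 in all of them and Vil1 reached 1.94 CPM. Of 10 markers of exocrine pancreas only Cela1 and Cela2a passed the filter on low counts. Muscle markers summed to between 18.0 and 463 CPM on the Mediterranean diet and between 10.5 and 1555 CPM on the vegan diet, with both SJL vegan mice highest. Malat1 and Neat1, transcripts that stay in the nucleus, summed to between 22.9 and 105 CPM, against a liver median of 433 CPM, in 4 libraries: Mediterranean mice 7 (C57BL/6J), 24 (A/J) and 53 (SJL) and vegan mouse 48 (DBA/2J). The next lowest, the DBA/2J vegan mouse 45, had 109 CPM. Mediterranean mice 7 and 53 also had the lowest scaling factors, 0.832 and 0.803. For the 11 gene lists described and the circadian clock genes, printed counts that moved by more than 1.5 times without these 4 libraries are given with and without them. With the log2 of this sum as a covariate, edgeR's quasi-likelihood test between the diets called 0 genes, with 729 at an unadjusted p under 0.05. Beyond these refits the part of nuclear RNA in the other results was not tested.

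No gene passed the test between the diets. Of 18636 genes tested with edgeR's quasi-likelihood test, 0 (0%) had a Benjamini-Hochberg adjusted p under 0.05, and the smallest adjusted p was 0.982. At an unadjusted p under 0.05 there were 803 genes (4.31%), 397 (2.13%) higher and 406 (2.18%) lower on the vegan diet. DESeq2 called 1 gene (Fthl17a, a ferritin-like gene named here after its values were seen) and limma on log2(TPM + 1) called 0. Without the filter on low counts edgeR called 170 of 34930 genes, with a fit whose prior degrees of freedom became infinite against 5.69 with the filter. For no gene did the 8 vegan libraries lie wholly above or wholly below the 8 Mediterranean libraries. All differences between the diets over the 4 strains are therefore measured values that did not pass the test, each with an adjusted p of at least 0.982. Within single strains, 2 mice against 2 in the model with 16 groups, edgeR's quasi-likelihood test called 1 gene, which was Mup21 in A/J (0.00537% of the genes tested). Unadjusted p of edgeR's quasi-likelihood test were used to count genes and to choose those named, and each log2 difference is given with its standard error (SE) from the same fit.

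The data nevertheless bound the size of most differences. Among the 10163 genes that averaged 5 CPM or more, the 95% confidence interval of the vegan to Mediterranean ratio lay within 2-fold either way for 9926 (97.7%) and within 1.5-fold for 9253 (91.0%). Their median SE was 0.11 on the log2 scale and their median absolute difference was 0.08. These intervals do not bound the difference within a single strain. For Npc2 the interval of the ratio ran from 0.78 to 1.17, with log2 differences of -0.80 in C57BL/6J and 0.82 in DBA/2J. Libraries of mice on different diets were also little further apart than libraries of mice on the same diet. The median absolute log2 difference over genes was 0.190 for the 8 pairs of mice sharing strain and diet, 0.218 for the 16 pairs sharing the strain but not the diet, and 0.256 for the 48 pairs sharing the diet but not the strain. At the median, mice of different strains were further apart than mice of different diets. The plot of difference against level shows where the named genes lie in that spread.

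**Figure D1:**
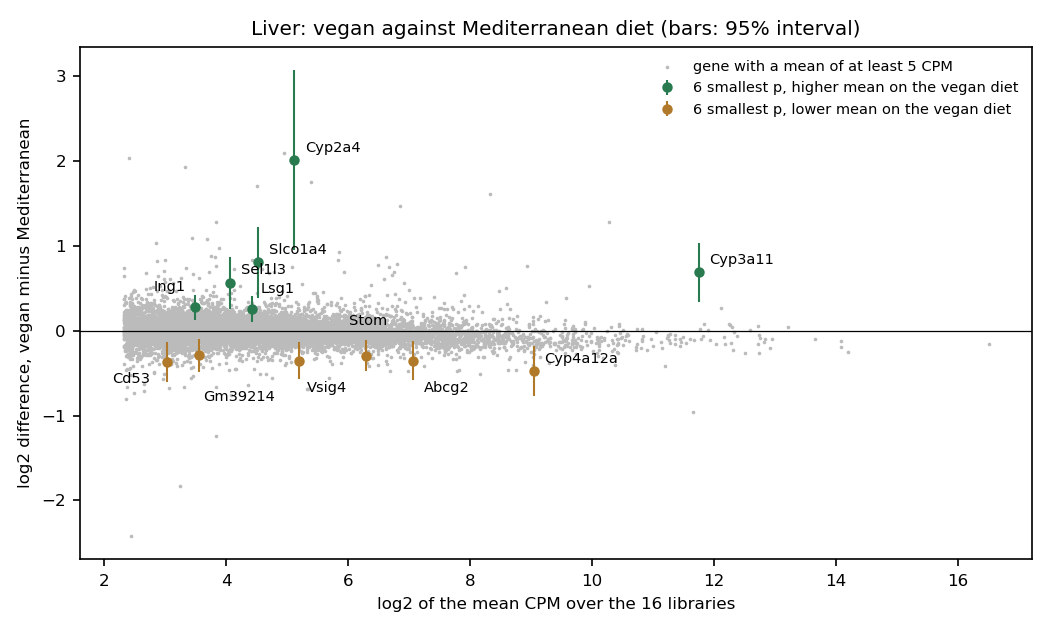
Log2 difference between vegan and Mediterranean livers (vertical axis, above 0 is higher on the vegan diet) against the log2 of the mean CPM over the 16 libraries (horizontal axis), 1 point per gene with a mean of 5 CPM or more. The 6 genes with the smallest p in each direction are coloured and labelled, with bars for the 95% interval. Cyp3a11 has a log2 difference of 0.69 at a mean of 3446 CPM. Scd1, not labelled, lies further from 0 at a similar level (-0.96 at 3247 CPM).

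The gene with the smallest p was Cyp3a11, the main drug- and steroid-oxidising cytochrome P450 of mouse liver and the standard readout of PXR (ENSMUSG00000056035, GRCm39 chr5:145791236-145816867, minus strand). Its level was 1872 CPM in the lowest, 2315 in the median and 4759 in the highest Mediterranean mouse, and 1817, 4413 and 6037 CPM in the vegan mice. The ranges overlapped: the C57BL/6J vegan mouse 16 was below every Mediterranean mouse but none of the other vegan mice was, and the SJL Mediterranean mouse 53 reached the levels of vegan mice. The means were 2604 ± 975 CPM (SD, n = 8) and 4288 ± 1535 CPM (SD, n = 8), and the fitted ratio, from the model with strain, was 1.61 with a 95% interval from 1.27 to 2.06. On the log2 scale the difference was 0.69 (SE 0.17), and it was positive in each strain, from 0.24 in C57BL/6J through 0.57 in A/J and 0.66 in SJL to 1.20 in DBA/2J. For reference, livers of the American diet held 2134 ± 355 CPM (SD, n = 8) and those of the vegetarian diet 3407 ± 467 CPM (SD, n = 8).

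Next by p came Slco1a4, which encodes the organic anion uptake carrier Oatp1a4 and is also known as a PXR target (GRCm39 chr6:141751165-141802036, minus strand). It was at 6.15, 14.2 and 31.2 CPM in the lowest, median and highest Mediterranean mouse and at 7.62, 25.6 and 66.5 CPM in the vegan mice. Levels depended on strain, with A/J and SJL high on both diets, and within each strain the vegan mean was the higher one. The log2 difference was 0.81 (SE 0.20), a fitted ratio of 1.75 with a 95% interval from 1.31 to 2.34. Nr1i2, which encodes the receptor PXR itself, had medians of 69.7 CPM on the Mediterranean diet and 61.9 CPM on the vegan diet (log2 difference -0.12, SE 0.11).

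The remaining Cyp3a genes gave a mixed picture. Cyp3a25, another abundant family member, had medians of 629 and 694 CPM (log2 difference 0.13, SE 0.10). A further 3 genes of the same cluster, all at low levels and usually higher in females or in young animals, had larger estimates on few counts: Cyp3a41a at 2.60 (SE 0.83), Cyp3a16 at 0.81 (SE 0.33) and Cyp3a44 at 0.81 (SE 0.37). For Cyp3a41a the DBA/2J vegan mouse 45 had 9.99 CPM and the next highest vegan mouse 0.640 CPM, so 1 mouse carries most of its mean. Near-identical copies share reads in this cluster, and the deposited counts split such reads, so these 3 values are uncertain. Over the whole list of 41 genes of xenobiotic metabolism under CAR, PXR and AhR, 18 had a higher vegan mean, against 51.6% of all genes tested, and the median log2 difference was -0.07. At an unadjusted p under 0.05, 4 of the 41 were higher (all genes 2.13%) and 2 lower (all genes 2.18%), against 3 in all without the DBA/2J vegan mouse 45 or the SJL vegan mouse 64 and 15 in all without the filter on low counts. The 2 lower ones were the P450 genes Cyp2c50, with medians of 423 CPM on the Mediterranean diet and 256 CPM on the vegan diet (log2 difference -0.47, SE 0.17), and Cyp2c54, with medians of 232 and 185 CPM (log2 difference -0.47, SE 0.20). The list as a whole therefore had no common direction, and Cyp3a11 and Slco1a4 differed in the opposite direction from Cyp2c50 and Cyp2c54.

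**Figure D2:**
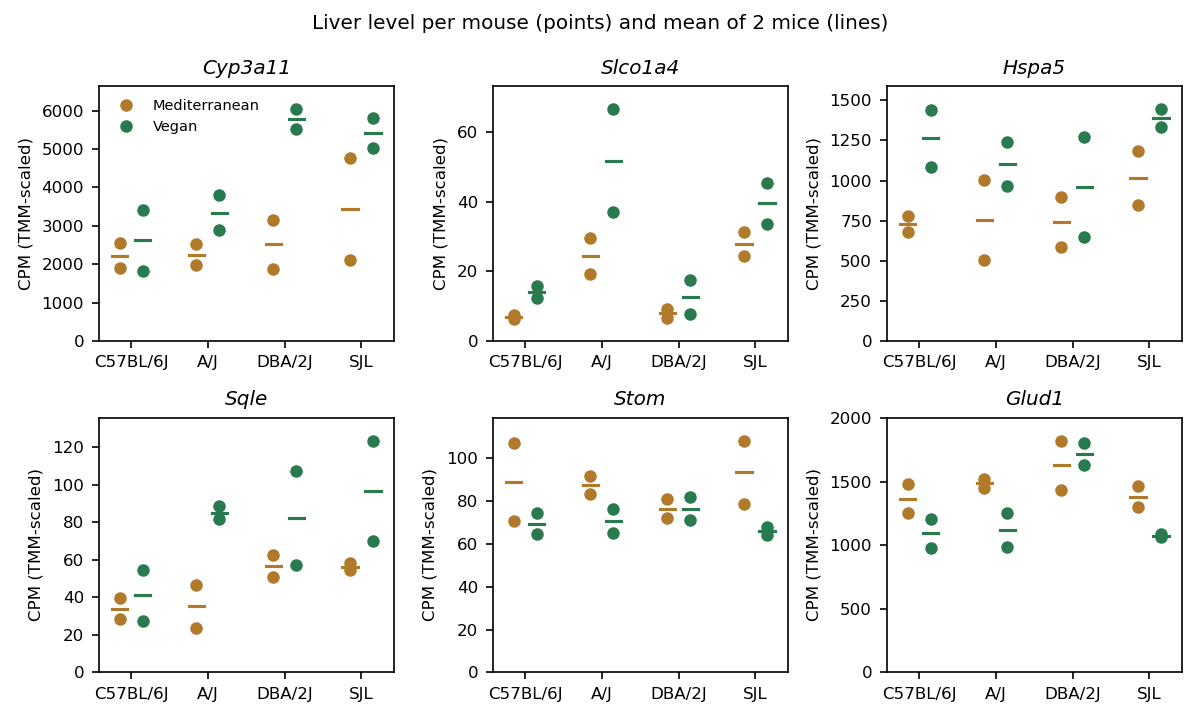
Level in CPM (vertical axes, 1 panel per gene, each with its own scale) of Cyp3a11, Slco1a4, Hspa5, Sqle, Stom and Glud1 in each of the 16 livers, by strain, 1 point per mouse, coloured by diet, with lines at the mean of 2 mice. Over all strains the diets overlap in every panel, and Cyp3a11 spans 1872 to 4759 CPM on the Mediterranean diet and 1817 to 6037 CPM on the vegan diet.

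Other genes with small p and a higher vegan mean in each of the 4 strains or in most of them came from unrelated processes. Ing1, a chromatin reader of the ING tumour suppressor family, ranged from 9.05 to 11.5 CPM (median 10.1) on the Mediterranean diet and from 10.6 to 13.3 CPM (median 12.6) on the vegan one (log2 difference 0.28, SE 0.07). Its ranges overlapped through the A/J mice. Sel1l3, a membrane protein gene, ranged from 4.47 to 22.3 CPM (median 14.0) and from 8.37 to 35.8 CPM (median 17.8), with a log2 difference of 0.57 (SE 0.15). By strain the Sel1l3 difference was uneven, at 1.28 in A/J, 0.58 in SJL, 0.32 in DBA/2J and 0.03 in C57BL/6J. Lsg1, a GTPase gene for the last steps of large ribosomal subunit assembly, ranged from 16.2 to 24.5 CPM (median 18.8) and from 20.2 to 25.8 CPM (median 23.9), with a log2 difference of 0.25 (SE 0.07). For Lsg1 the overlap came from the SJL mice, which were high on both diets. Cyp2a4, a steroid hydroxylase gene that is higher in female liver, had a log2 difference of 2.01 (SE 0.52) that rested on A/J: its Mediterranean mice had 35.6 and 53.6 CPM and its vegan mice 275 and 183 CPM, while every other library was at or below 4.04 CPM.

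Among genes that averaged 5 CPM or more and had a lower vegan mean, the smallest p belonged to Vsig4, a complement receptor gene of resident liver macrophages, which is described with the macrophage markers. Stom, encoding the membrane protein stomatin, had 70.7, 82.3 and 108 CPM in the lowest, median and highest Mediterranean mouse and 64.4, 69.4 and 82.2 CPM in the vegan mice. The groups overlapped between 70.7 and 82.2 CPM, and the 2 highest values were those of Mediterranean mice 7 and 53. The log2 difference of Stom was -0.30 (SE 0.09). Cyp4a12a, a male-specific fatty acid hydroxylase gene under growth hormone control, had medians of 606 and 479 CPM (log2 difference -0.48, SE 0.14). It was lower on the vegan diet in C57BL/6J, A/J and SJL but not in DBA/2J, where the difference was 0.12. Abcg2, an exporter of sulfate conjugates and plant compounds at the canalicular membrane, had medians of 148 and 134 CPM (log2 difference -0.35, SE 0.11). Cd53, a leukocyte tetraspanin gene, had medians of 8.65 and 7.28 CPM (log2 difference -0.36, SE 0.11), and the long non-coding RNA gene Gm39214 had medians of 12.7 and 10.1 CPM (log2 difference -0.29, SE 0.09).

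Genes of protein folding in the ER had the most members with small p of the pathway lists described. Of 20 members, 17 had a higher mean on the vegan diet, against 51.6% of all genes tested, and the median log2 difference was 0.21, against 0.01 over all genes. At an unadjusted p under 0.05, 9 of 20 were higher (all genes 2.13%) and 0 were lower, and 9 of 20 were higher in each of the 4 strains (all genes 3.99%). None passed the adjusted threshold. With a library or a strain left out, or with another scaling or tool, 15 to 20 members had a higher vegan mean and 6 to 10 had a p under 0.05. The list is known to be controlled in common by the unfolded protein response, in which ATF6 and the spliced form of Xbp1 act on promoters through the ER stress response element.

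The central chaperone gene Hspa5, which encodes BiP, was at 506, 811 and 1185 CPM in the lowest, median and highest Mediterranean mouse and at 646, 1253 and 1445 CPM in the vegan mice. The groups overlapped, with the DBA/2J vegan mouse 45 low at 646 CPM and the SJL Mediterranean mouse 54 high at 1185 CPM. The means were 809 ± 223 and 1177 ± 271 CPM (SD, n = 8 each), with a fitted ratio of 1.44 and a 95% interval from 1.12 to 1.86. The log2 difference was 0.53 (SE 0.18). Creld2, a secreted folding factor gene that responds to ER stress, had the largest estimate among the members: 19.4, 36.3 and 78.9 CPM on the Mediterranean diet and 29.9, 77.6 and 99.9 CPM on the vegan diet. Its log2 difference was 0.83 (SE 0.30), a fitted ratio of 1.78.

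Several folding partners of BiP had differences of similar size. Hyou1, its nucleotide exchange factor, had medians of 157 and 259 CPM (log2 difference 0.68, SE 0.23). Manf, an ER protein that stabilises BiP complexes, had medians of 76.1 and 122 CPM (log2 difference 0.61, SE 0.21). Pdia4, a disulfide isomerase gene, had medians of 204 and 260.4 CPM and a log2 difference of 0.35 (SE 0.12). Hsp90b1, encoding the chaperone GRP94, had medians of 526 and 715 CPM (log2 difference 0.33, SE 0.12), with a higher vegan mean in 3 of 4 strains. The transcription factor gene Xbp1 had a log2 difference of 0.30 (SE 0.12). Some members had small estimates, among them Dnajc3, a BiP co-chaperone gene, with medians of 236 and 243 CPM (log2 difference 0.10, SE 0.10).

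The promoters of 4 of these genes are printed because they carry the ER stress response element, spelled CCAAT, then 9 bases of any kind, then CCACG. Each line gives the 200 bases before the annotated start in GRCm39, 5' to 3' on the gene's own strand, read from the GRCm39 genome with the start of the GENCODE vM39 canonical transcript, with the element in capitals on whichever strand it lies. They are Hspa5 at chr2:34661904-34662103 (plus strand), Hsp90b1 at chr10:86541379-86541578 (minus strand), Creld2 at chr15:88703613-88703812 (plus strand) and Dnajc3 at chr14:119175145-119175344 (plus strand).
Hspa5: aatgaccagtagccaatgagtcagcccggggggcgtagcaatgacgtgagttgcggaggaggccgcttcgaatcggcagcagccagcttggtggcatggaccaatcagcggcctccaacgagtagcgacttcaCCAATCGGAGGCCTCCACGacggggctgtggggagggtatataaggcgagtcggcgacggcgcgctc
Hsp90b1: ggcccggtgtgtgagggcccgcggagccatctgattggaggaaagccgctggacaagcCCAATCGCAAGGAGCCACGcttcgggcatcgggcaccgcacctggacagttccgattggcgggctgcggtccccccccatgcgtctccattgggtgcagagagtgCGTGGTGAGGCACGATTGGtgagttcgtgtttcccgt
Creld2: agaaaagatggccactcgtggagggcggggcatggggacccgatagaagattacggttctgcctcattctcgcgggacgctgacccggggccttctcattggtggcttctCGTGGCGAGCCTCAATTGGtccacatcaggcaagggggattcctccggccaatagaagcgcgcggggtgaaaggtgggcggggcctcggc
Dnajc3: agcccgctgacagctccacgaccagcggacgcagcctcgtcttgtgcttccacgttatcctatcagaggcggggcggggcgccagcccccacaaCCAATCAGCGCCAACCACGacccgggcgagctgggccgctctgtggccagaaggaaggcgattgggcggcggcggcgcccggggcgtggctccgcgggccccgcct
Hsp90b1 carries 2 matches. In windows from 250 bases before to 50 bases after the start, searched on both strands, 8 of 20 list members had at least 1 match (40%) against 20 of the 14131 promoters of all protein-coding genes tested (0.142%). The members with a match were Calr, Canx, Creld2, Derl3, Dnajc3, Hsp90b1, Hspa5 and Pdia6. The 8 members with a match had a median log2 difference of 0.11 (-0.19 to 0.83), with 7 of 8 higher on the vegan diet. The 12 without an exact match had a median of 0.26 (-0.0075 to 0.68), with 10 of 12 higher. Whether the diet difference goes with the element was not tested. Dnajc3, whose element is printed with the others, is an example of a carrier with a small difference. A match is a description of the letters and shows no binding.

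Cholesterol synthesis genes, the targets of SREBP-2, also had mostly higher vegan means. Of 25 members, 22 had a higher mean (all genes 51.6%), the median log2 difference was 0.20, and 5 had an unadjusted p under 0.05, all higher (all genes 2.13%). 5 of 25 were higher in each of the 4 strains (all genes 3.99%). The member with the smallest p was Sqle, squalene epoxidase, the first oxygen-requiring step of the pathway. It was at 23.8, 48.6 and 62.5 CPM in the lowest, median and highest Mediterranean mouse and at 27.5, 75.7 and 123 CPM in the vegan mice. The C57BL/6J vegan mouse 16 was low, and 5 of the 8 vegan mice were above every Mediterranean mouse. Mean levels of Sqle were 45.5 ± 13.9 and 76.2 ± 30.7 CPM (SD, n = 8 each), with a fitted ratio of 1.62, a 95% interval from 1.15 to 2.27 and a log2 difference of 0.69 (SE 0.24).

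The other members with small p act before and after squalene. Hmgcs1, which makes HMG-CoA at the entry of the pathway, had medians of 193 and 255 CPM (log2 difference 0.42, SE 0.20). Mvd, which decarboxylates mevalonate diphosphate, had medians of 18.5 and 28.8 CPM (log2 difference 0.68, SE 0.29), and the isomerase gene Idi1 had medians of 39.8 and 52.3 CPM (log2 difference 0.45, SE 0.22). Cyp51, lanosterol demethylase, had medians of 124 and 151 CPM (log2 difference 0.39, SE 0.14). Srebf2, which encodes SREBP-2 and is one of its own targets, had a log2 difference of 0.13 (SE 0.08).

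By strain, 23 of 25 members had a higher vegan mean in A/J (median 0.42), 22 in SJL (median 0.30), 20 in DBA/2J (median 0.26) and 9 in C57BL/6J (median -0.15). The test of the difference between strains had an unadjusted p under 0.05 for 1 of the 25 genes, against 15.6% of all genes. That count was unstable: it was 10 without the 4 libraries low in Malat1 and Neat1 (all genes 19.6%), 8 without the filter on low counts, 6 without the SJL Mediterranean mouse 53, 4 without the SJL Mediterranean mouse 54, the DBA/2J vegan mouse 48 or Mediterranean mice 7 and 53, 2 without the SJL vegan mouse 63, and 0 or 1 under the other settings run. For the test between the diets 20 to 25 members had a higher vegan mean over the other settings, while the number with a p under 0.05 ranged from 0 to 11. It was 0 without the 4 libraries low in Malat1 and Neat1. Single mice moved it too: it was 2 without either A/J Mediterranean mouse (22 or 24), the DBA/2J vegan mouse 48 or the SJL vegan mouse 63, 3 without the C57BL/6J Mediterranean mouse 7, the A/J vegan mouse 32 or the SJL Mediterranean mouse 54, and 8 without the C57BL/6J Mediterranean mouse 8 or the DBA/2J vegan mouse 45.

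**Figure D3:**
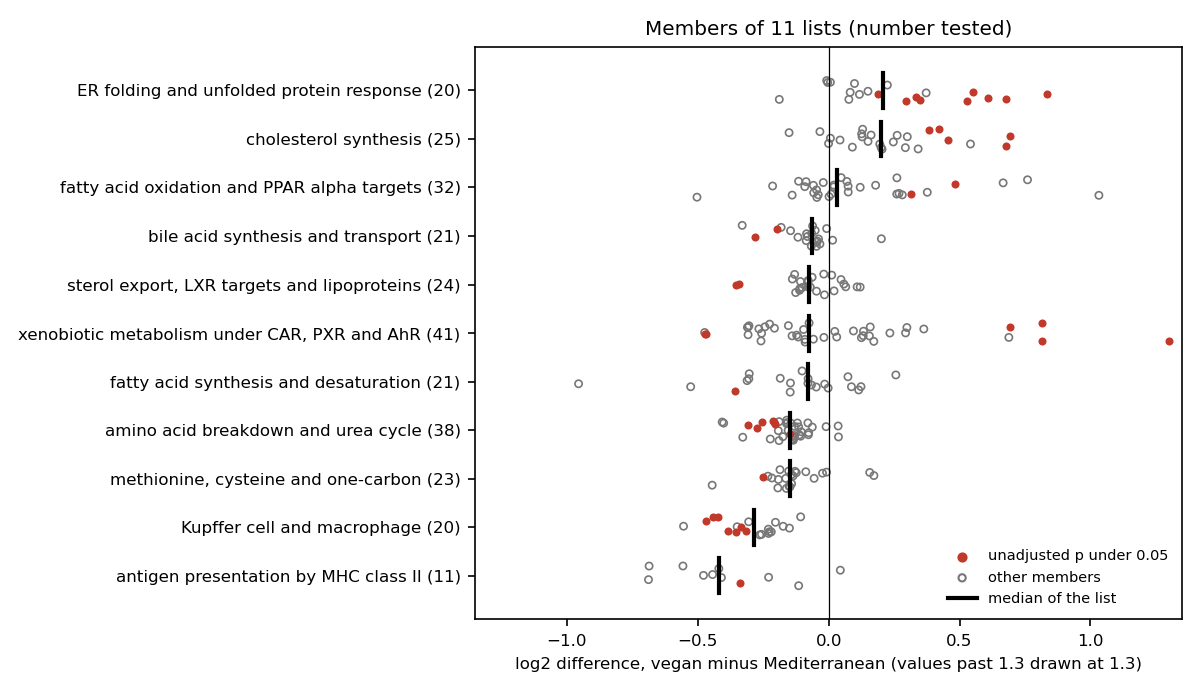
Log2 difference between vegan and Mediterranean livers (horizontal axis) of every tested member of the 11 gene lists described (rows), 1 point per gene, filled where the unadjusted p was under 0.05, with the list median as a bar and values past 1.3 drawn at 1.3 (Cyp3a41a at 2.60). Points of ER folding and cholesterol synthesis lie mostly right of 0 (medians 0.21 and 0.20), and those of amino acid breakdown, MHC class II and macrophage markers mostly left of it (medians -0.15, -0.42 and -0.28).

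Genes that carry cholesterol onward had small differences. Of 21 genes of bile acid synthesis and transport, 2 had a higher vegan mean, the median log2 difference was -0.06, and 2 had an unadjusted p under 0.05, both lower (all genes 2.18%). These were Acox2, the peroxisomal oxidase that shortens the bile acid side chain, with medians of 327 and 273 CPM (log2 difference -0.20, SE 0.09), and Akr1d1, the steroid reductase of the pathway (log2 difference -0.28, SE 0.13). Cyp2c70, which makes muricholic acids in mice, had a log2 difference of -0.33 (SE 0.17), and the bile acid carrier gene Slco1a1 one of -0.18 (SE 0.13). Cyp7a1, the rate-limiting enzyme of bile acid synthesis, varied widely between mice. It ranged from 15.1 to 223 CPM (median 117) on the Mediterranean diet and from 29.3 to 246 CPM (median 139.9) on the vegan one, with a log2 difference of 0.20 (SE 0.41) that turned to -0.17 without the 4 libraries low in Malat1 and Neat1. On log2(TPM + 1) values 11 of the 21 list members had a higher vegan mean, and 6 did without those 4 libraries, so the list had no stable direction. The number with a p under 0.05 ranged from 0 to 3 over the other settings and was 0 without the 4 libraries low in Malat1 and Neat1.

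Of 24 tested genes of sterol export, LXR targets and lipoproteins, 7 had a higher vegan mean (median log2 difference -0.07) and 2 had an unadjusted p under 0.05, both lower (all genes 2.18%). They were Abcg1, a sterol exporter gene that macrophages also express (log2 difference -0.35, SE 0.15), and Pltp, the phospholipid transfer protein gene (log2 difference -0.34, SE 0.16). Nr1h3, which encodes the sterol sensor LXR alpha, had a log2 difference of -0.14 (SE 0.08), and Soat2, which esterifies cholesterol, one of 0.12 (SE 0.08). The direction of the list depended on the setting: 16 of the 24 members had a higher vegan mean without Mediterranean mice 7 and 53, 14 without the 4 libraries low in Malat1 and Neat1, and 13 on log2(TPM + 1) values. The number with a p under 0.05 ranged from 0 to 5 over the other settings, with 0 without the C57BL/6J Mediterranean mouse 7 or the C57BL/6J vegan mouse 13, 1 without the 4 libraries low in Malat1 and Neat1 and 5 without DBA/2J.

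Counts for fatty acid genes depended on single mice. Of 21 genes of fatty acid synthesis and desaturation, 5 had a higher vegan mean (median log2 difference -0.08), but 14 did without the DBA/2J Mediterranean mouse 38, 11 without the C57BL/6J Mediterranean mouse 7, 8 without the 4 libraries low in Malat1 and Neat1 and 11 on log2(TPM + 1) values. The clearest case was Scd1, the main desaturase gene of liver, at 550.3, 1633 and 14806 CPM in the lowest, median and highest Mediterranean mouse and at 1088, 2284 and 2832 CPM in the vegan mice. The 3 Mediterranean mice 38, 7 and 53 were above every vegan mouse, while the other 5 had levels within or below the vegan range. Its means were 4422 ± 5035 and 2073 ± 667 CPM (SD, n = 8 each) and its log2 difference was -0.96 (SE 0.56), although the vegan median was the higher one. Scd2, another desaturase gene, had medians of 10.1 and 7.70 CPM (log2 difference -0.36, SE 0.17) and was the single member with a p under 0.05 (lower, all genes 2.18%), a count that ranged from 0 to 7 over the other settings. Me1, malic enzyme (log2 difference -0.31, SE 0.23), and Pklr, liver pyruvate kinase (log2 difference -0.30, SE 0.28), were the next members by p after Scd1. By strain the list's median was -0.70 in DBA/2J and -0.35 in C57BL/6J, against 0.10 in A/J and 0.33 in SJL, and the test between strains had an unadjusted p under 0.05 for 2 of the 21 genes (all genes 15.6%), a count that ranged from 1 to 15, with 5 without the DBA/2J Mediterranean mouse 39, 6 without the DBA/2J vegan mouse 48 and 15 without the filter on low counts.

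Of 32 genes of fatty acid oxidation and PPAR alpha targets, 20 had a higher vegan mean (median log2 difference 0.03), and 2 had an unadjusted p under 0.05, both higher (all genes 2.13%). That count was 11 without the filter on low counts and 0 to 4 under the other settings, with 0 without the C57BL/6J Mediterranean mouse 7, the A/J mice 24 (Mediterranean) or 30 (vegan), or the SJL Mediterranean mouse 53. The members were Slc27a1, a fatty acid transporter gene (log2 difference 0.31, SE 0.14), and Cyp4a32, a fatty acid hydroxylase gene with medians of 66.4 and 61.8 CPM and a highest vegan value of 565 CPM (log2 difference 0.48, SE 0.24). Fabp1, the abundant liver fatty acid carrier, had medians of 4005 and 4818 CPM (log2 difference 0.27, SE 0.14), and Acot3, a peroxisomal thioesterase gene, a log2 difference of 1.03 (SE 0.55). In A/J 27 of the 32 genes had a higher vegan mean (median 0.30), and without the A/J vegan mouse 30, which had 47.1 CPM of Acot3, the count over all strains was 11 of 32, against 26 of 32 on log2(TPM + 1) values of all mice.

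Urea cycle genes and genes of amino acid breakdown mostly had lower vegan means. Of 38 members, 2 had a higher and 36 a lower mean, the median log2 difference was -0.15, and 7 had an unadjusted p under 0.05, all lower (all genes 2.18%). In addition 6 of the 38 were lower in each of the 4 strains (all genes 3.97%). Glud1, glutamate dehydrogenase, which frees ammonia from glutamate for the urea cycle, was at 1249.8, 1459 and 1821 CPM in the lowest, median and highest Mediterranean mouse and at 982, 1146 and 1800.0 CPM in the vegan mice. The 2 DBA/2J vegan mice were high and 5 of the other 6 vegan mice were below every Mediterranean mouse. Its means were 1466 ± 172 and 1251 ± 305 CPM (SD, n = 8 each) and its log2 difference was -0.26 (SE 0.08).

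Other members with small p include enzymes that break down aromatic amino acids. Hgd, homogentisate dioxygenase of tyrosine breakdown, had medians of 565 and 482 CPM (log2 difference -0.31, SE 0.10). Kynu, kynureninase of tryptophan breakdown, had medians of 192 and 167 CPM (log2 difference -0.21, SE 0.09), and Agxt2, a mitochondrial aminotransferase gene, had a log2 difference of -0.20 (SE 0.09). The entry enzyme of the urea cycle, Cps1, had medians of 2108 and 1798 CPM (log2 difference -0.17, SE 0.15). By strain the list's median was -0.32 in A/J, -0.18 in SJL and -0.13 in C57BL/6J, but 0.02 in DBA/2J, where 21 of 38 members had a higher vegan mean, and the test between strains had an unadjusted p under 0.05 for 6 of the 38 (all genes 15.6%). The count of the test between strains ranged from 3 to 11 over the other settings, with 3 without the 4 libraries low in Malat1 and Neat1 and 11 without the A/J vegan mouse 32. Without the 4 libraries low in Malat1 and Neat1, 9 of 38 had a higher vegan mean and 2 a p under 0.05, and the fit on the 16 libraries alone also left 2 with a p under 0.05. The count of the test between the diets was 3 without the A/J Mediterranean mouse 24, the A/J vegan mouse 30 or the SJL vegan mouse 64, 4 without the SJL Mediterranean mouse 53, 1 without A/J and 14 without DBA/2J.

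The neighbouring list of methionine, cysteine and one-carbon metabolism gave the same count of members with a higher vegan mean, 2 of 23, and a median log2 difference of -0.15. 1 member had an unadjusted p under 0.05, and it was lower (all genes 2.18%), while 7 of 23 were lower in each of the 4 strains (all genes 3.97%). That member was Cth, cystathionine gamma-lyase, which makes cysteine from cystathionine, with medians of 270.1 and 212 CPM (log2 difference -0.25, SE 0.09). Cbs, the step before it, had a log2 difference of -0.19 (SE 0.11), Sardh, which demethylates sarcosine, one of -0.22 (SE 0.12), and Suox, sulfite oxidase at the end of cysteine breakdown, one of -0.15 (SE 0.09). Over the other settings 1 to 5 members had a higher vegan mean, with 5 without the 4 libraries low in Malat1 and Neat1, and 0 to 7 had a p under 0.05: 0 without A/J, 2 without those libraries, 5 without the C57BL/6J vegan mouse 16 and 7 without DBA/2J.

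Markers of resident liver macrophages (Kupffer cells) had lower vegan means throughout the list. All 20 markers had a lower vegan mean, with a median log2 difference of -0.28, and 7 had an unadjusted p under 0.05 (all genes 2.18%). In bulk RNA fewer macrophages and less of these transcripts per macrophage cannot be told apart. Summed over the 20 genes, unscaled, the markers made up 661, 968 and 1564 CPM in the lowest, median and highest Mediterranean mouse and 708, 759 and 1025 CPM in the vegan mice. In C57BL/6J the Mediterranean mice had 1058 and 1205 CPM and the vegan mice 739 and 749 CPM, and in SJL 1058 and 1564 CPM against 1025 and 880.3 CPM. In A/J the order was the other one, 679.6 and 665 CPM against 822 and 749.8 CPM, and in DBA/2J the values overlapped, 879 and 661 CPM against 768 and 708 CPM.

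**Figure D4:**
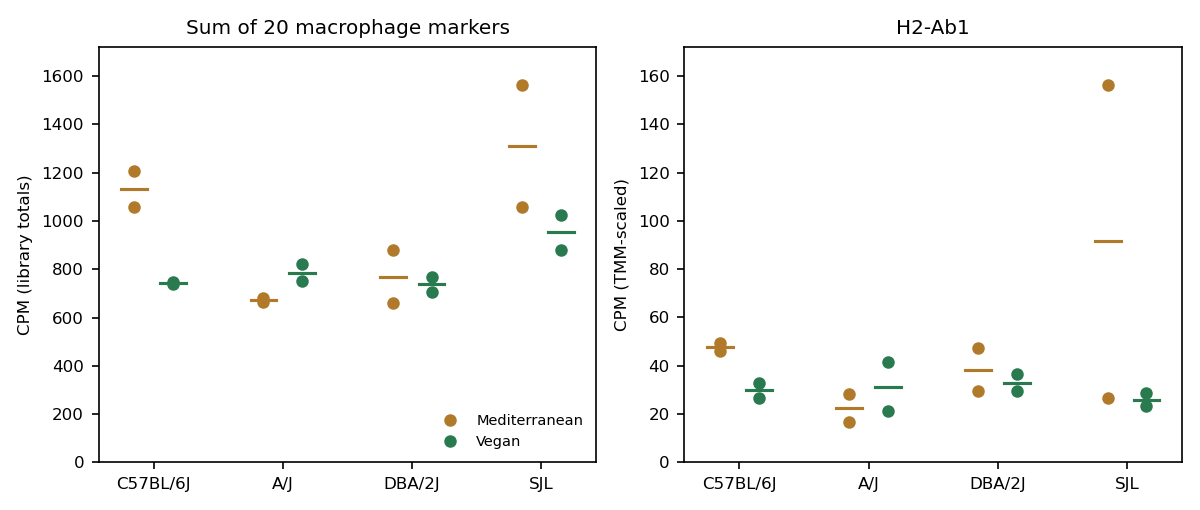
Summed level of 20 macrophage markers (left panel, unscaled CPM) and level of H2-Ab1 (right panel, CPM) in each of the 16 livers, by strain, 1 point per mouse, coloured by diet, with lines at the mean of 2 mice. Mediterranean mice are above vegan mice in C57BL/6J and SJL for the marker sum but not in A/J, and the SJL Mediterranean mouse 54 is alone at 156 CPM of H2-Ab1.

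Vsig4 was at 25.9, 42.7 and 58.4 CPM in the lowest, median and highest Mediterranean mouse and at 24.7, 33.0 and 35.1 CPM in the vegan mice. The 4 Mediterranean mice of C57BL/6J and SJL and the DBA/2J Mediterranean mouse 38 (38.9 CPM) were above every vegan mouse. The DBA/2J Mediterranean mouse 39 (29.1 CPM) and the A/J Mediterranean mice lay within the vegan range. The log2 difference was -0.35 (SE 0.11). Mpeg1, a pore-forming protein gene of macrophages, had medians of 123 and 84.5 CPM (log2 difference -0.47, SE 0.18). Folr2, a folate receptor gene of resident macrophages, had a log2 difference of -0.44 (SE 0.17). Timd4, a receptor for dying cells, had medians of 13.1 and 10.1 CPM (log2 difference -0.42, SE 0.17). Csf1r, the growth factor receptor gene that macrophages depend on, had medians of 91.0 and 63.5 CPM (log2 difference -0.38, SE 0.16). The count of markers with a p under 0.05 depended on single mice: it was 3 without the C57BL/6J Mediterranean mouse 7, 3 without the SJL Mediterranean mouse 54, 11 without the A/J Mediterranean mouse 24 and 13 without the DBA/2J vegan mouse 45. It was 1 without SJL, 0 without C57BL/6J, 14 without A/J and 15 without DBA/2J.

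Whether the diet difference varied between the strains was tested for each gene. With edgeR's quasi-likelihood test 0 of 18636 genes passed the adjusted threshold and 2915 (15.6%) had an unadjusted p under 0.05. This count of 0 depended on the setting: DESeq2 called 66 genes and edgeR without the count filter 1976. It also depended on single mice, since edgeR called 1516 genes without the SJL Mediterranean mouse 54, 435 without the DBA/2J vegan mouse 48, 301 without the C57BL/6J Mediterranean mouse 8, 216 without the SJL Mediterranean mouse 53, 1 (Mup21) without the A/J Mediterranean mouse 22 and 1 (Suv39h2) without the DBA/2J Mediterranean mouse 39. Without Mediterranean mice 7 and 53 it called 3 (Prpf4b, Khdc4 and Atxn2l), and without the 4 libraries low in Malat1 and Neat1 it called 685.

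Of the 20 macrophage markers, 13 had an unadjusted p under 0.05 in the test between strains, against 15.6% of all genes, and 10 to 16 had one over the other settings. The list's median log2 difference was -0.83 in C57BL/6J and -0.61 in SJL, with 0 of 20 markers higher on the vegan diet in each, and 0.13 in A/J (18 of 20 higher) and 0.08 in DBA/2J (11 of 20 higher). For Csf1r the differences were -0.89 in C57BL/6J, 0.12 in A/J, 0.09 in DBA/2J and -0.76 in SJL. For C1qb, a chain of the complement protein C1q that macrophages secrete, they were -0.91, 0.18, 0.44 and -0.63 in the same order.

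Genes of antigen presentation by MHC class II, which macrophages, dendritic cells and B cells express, had a lower vegan mean in 10 of 11 members, with a median log2 difference of -0.42. 1 member had an unadjusted p under 0.05 and was lower (all genes 2.18%), which was Ctss, the protease cathepsin S that trims the invariant chain, with medians of 46.7 and 37.7 CPM (log2 difference -0.34, SE 0.13). H2-Ab1, a class II beta chain gene, had medians of 37.9 and 29.0 CPM (log2 difference -0.69, SE 0.36), with the SJL Mediterranean mice far apart at 156 CPM in mouse 54 and 26.7 CPM in mouse 53. H2-Eb1, another beta chain gene, had medians of 34.4 and 30.6 CPM and a highest Mediterranean value of 198 CPM, again in mouse 54 (log2 difference -0.69, SE 0.39). Ifi30, a reductase of antigen processing, had a log2 difference of -0.23 (SE 0.13). The number with a p under 0.05 ranged from 0 to 8 over the other settings: it was 0 without the C57BL/6J Mediterranean mouse 7, 4 without the A/J vegan mouse 30, 7 without the 4 libraries low in Malat1 and Neat1, and 8 without A/J or without the filter on low counts. In the test between strains 5 of the 11 had a p under 0.05 (all genes 15.6%), and the list's median was -1.44 in SJL, -0.46 in C57BL/6J, 0.04 in DBA/2J and 0.47 in A/J. Under the other settings the count of the test between strains ranged from 2 without either the SJL Mediterranean mouse 54 or the SJL vegan mouse 64, through 9 without the A/J vegan mouse 32 and 10 without the SJL Mediterranean mouse 53 or without the 4 libraries low in Malat1 and Neat1, to 11 without the filter on low counts. Without mouse 54, 4 of the 11 had a higher vegan mean.

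**Figure D5:**
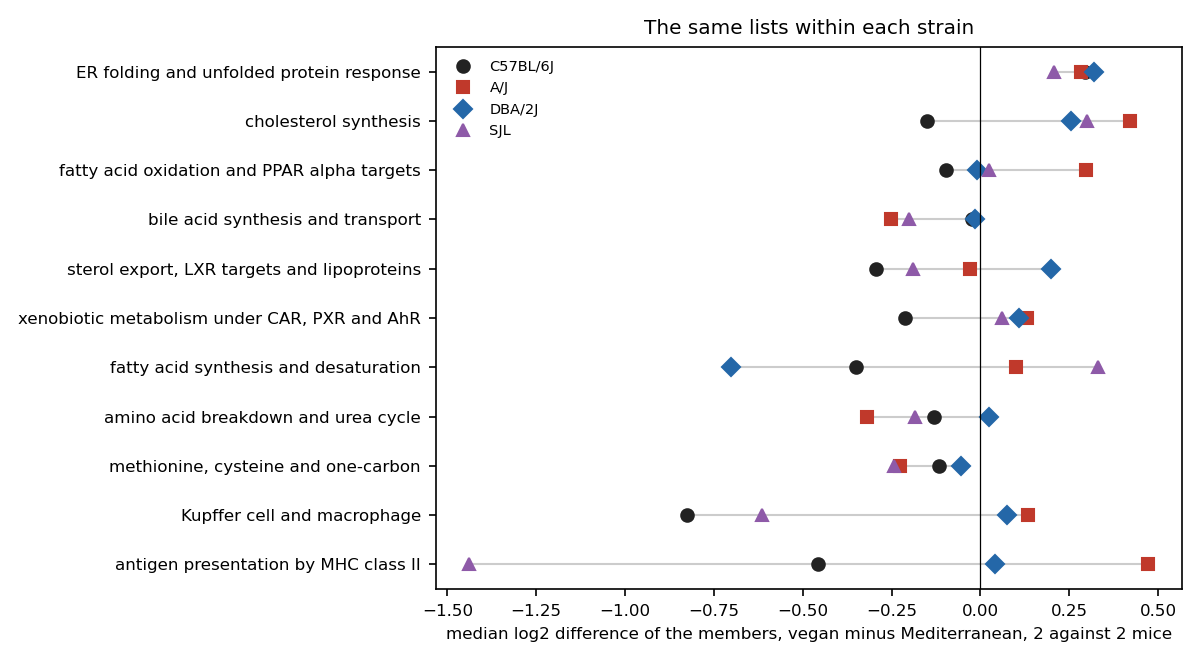
Median log2 difference between vegan and Mediterranean livers (horizontal axis) of the 11 gene lists (rows) within each of the 4 strains, 1 marker per strain, each from 2 mice against 2. ER folding lies between 0.21 and 0.32 in all 4 strains, while macrophage markers lie at -0.83 in C57BL/6J and at 0.13 in A/J.

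The 4 genes with the smallest p in the test between strains, all with an adjusted p of 0.173, differed in opposite directions. Mup21, a major urinary protein gene, was at 153 and 313 CPM in the A/J Mediterranean mice and at 20.4 and 38.4 CPM in the A/J vegan mice, a log2 difference of -2.99 with an adjusted p of 0.0131 within A/J by edgeR's quasi-likelihood test, against -0.00083 in C57BL/6J, 0.24 in DBA/2J and 0.55 in SJL. Major urinary protein genes share near-identical copies, so that its counts are uncertain. The edgeR fit on the A/J libraries alone called 0 genes, with 1254 at an unadjusted p under 0.05. Npc2, which carries cholesterol out of lysosomes, was at 97.0 and 74.4 CPM on the Mediterranean diet and at 47.3 and 51.5 CPM on the vegan diet in C57BL/6J. In DBA/2J it was at 50.0 and 45.5 CPM and at 93.2 and 74.9 CPM, the opposite order, and in both strains the 2 diets did not overlap. Ganc, a glucosidase gene, had a log2 difference of 0.71 in C57BL/6J and -0.73 in DBA/2J. Cfp, the complement factor properdin made by myeloid cells, was at 45.1 and 51.3 CPM on the Mediterranean diet and at 22.7 and 24.5 CPM on the vegan diet in C57BL/6J, a log2 difference of -1.03, against 0.28 in A/J, 0.24 in DBA/2J and -0.38 in SJL.

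Values within a strain come from 2 mice against 2, and each mouse counts once, so that 1 unusual liver can set a strain's difference. The labels give no batch, so whether diet was blocked by batch or mixed with it is not known. In the test between strains and within single strains, p rest on the spread between mice of one strain and diet. The test between the diets had strain and diet as additive terms. Its p and SE rest on a spread that also holds any variation of the diet difference between strains.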

How the data were processed

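Per the labels, RNA from pulverised frozen liver was made into stranded libraries of polyadenylated RNA. Per the submitters' processing notes, reads were checked with FastQC, trimmed with Trim Galore, aligned to GRCm39 with HISAT2 and counted with HTSeq. Strand setting, versions and annotation: not given in the sources used here. Estimated counts, deposited by the authors, share out reads with several positions, and 74.8% of non-zero liver values were whole within 1e-06. That makes genes with near-identical copies uncertain. TPM values deposited by the authors served 1 alternative.

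Counts were rounded and fitted with edgeR 4.0.16 in R 4.3.3: filterByExpr (minimum count 10, minimum total 15), TMM scaling, robust quasi-likelihood F-tests, strain and diet as additive terms over all 32 liver libraries, and Benjamini-Hochberg adjustment at 0.05 over 18636 genes. A model with 16 groups gave the test between strains. CPM are TMM-scaled, except marker sums. Code was tested on simulated data. Alternatives used limma 3.58.1, DESeq2 1.42.0, RLE scaling, other filters and left-out libraries or strains. Of 56980 identifiers 56236 had a GENCODE vM39 symbol.

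The members, gene lists and tests were chosen with earlier results of these data known. Named genes, averaging 5 CPM or more, were the 6 with the smallest p in each direction, since none passed, and the 4 with the smallest p between strains. Up to 4 members with the smallest p of each list described, also averaging 5 CPM or more, were named too. Further list members, some of them at lower levels, were chosen for their role after their values were seen.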

Additional observations from a re-analysis of the deposited data

Results flagged for a closer look

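For 84 measures, the highest or lowest of the 8 mice on each diet was compared with its neighbour, which gave 168 groups. In 20 of them the gap, as a share of the group's range, was above Dixon's 95% critical value for 8 samples. For 8 independent values of 1 normal distribution, chance flags about 1 in 20 groups. Each group here mixes 4 strains on the CPM scale, and many measures are related, so that rate need not hold. The 20 flags therefore do not show an excess over chance. Values are given in CPM, with the next value of the same diet, and no explanation was weighed.

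Among xenobiotic and hydroxylase genes, the SJL Mediterranean mouse 53 was high in Cyp3a11 (4759, next 3157), Cyp4a12a (920.3, next 631) and Cyp3a41a (0.382, next 0.195). The DBA/2J vegan mouse 45 was high in Cyp3a41a (9.99, next 0.640). A/J mice were high in Cyp3a44: Mediterranean mouse 22 at 11.6 (next 4.52) and vegan mouse 32 at 19.1 (next 9.08). The SJL Mediterranean mouse 54 was high in the chaperone gene Hyou1 (312.5, next 186) and in the class II genes H2-Ab1 (156, next 49.2) and H2-Eb1 (198, next 46.9).

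Among metabolic genes, the DBA/2J vegan mouse 48 was high in Suox (179, next 143) and vegan mouse 45 in Nr1h3 (150, next 119). The A/J vegan mouse 30 was high in Slc27a1 (13.6, next 8.98) and Acot3 (47.1, next 8.86), and the SJL vegan mouse 63 in Pltp (35.4, next 27.6).

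Genes of other tissues were also uneven. Cidea, a lipid droplet gene of brown fat, was at 5.14 in the C57BL/6J vegan mouse 16 (next 1.14). Ucp1, the uncoupling protein of brown fat, was at 68.8 in the DBA/2J Mediterranean mouse 38 (next 8.79) and at 5.41 in the A/J vegan mouse 32 (next 1.55). The 8 fat cell markers summed to 182.5 in Mediterranean mouse 38 (next 71.9). In the C57BL/6J Mediterranean mouse 7, Hba-a2, an alpha globin gene with a near-identical copy, was at 80.3 (next 23.1), and the red blood cell markers summed to 688 (next 399.8).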

How the results depend on the processing

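The count of genes called between the diets was 0 except without the count filter (170) and with DESeq2 (1). It was 0 to 0 with each library left out. The count of genes whose diet difference varied between strains was 0 with RLE scaling and with the 16 libraries alone, and moved to 1976 without the filter, 66 with DESeq2, 685 without the 4 libraries low in Malat1 and Neat1, and 3 without Mediterranean mice 7 and 53. With each library left out it ranged from 0 to 1516. The DESeq2 count of 66 came from a likelihood ratio test on the 16 libraries alone. What moved the counts was not tested.

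Log2 differences of the 74 named genes kept their sign in all 1184 values with 1 library left out and in 957 of 958 values under other settings. The exception was Cyp7a1 (-0.17 without the 4 libraries low in Malat1 and Neat1). Most of these genes were named for a small p, or after their values were seen, in these same libraries. The refits also share most libraries, so the kept signs are no independent check. In 27 of the 958, all without the filter, a gene passed the threshold. Within 1 strain, 42 of 290 values had the other sign. In A/J these were Cyp3a25 (-0.21), Scd1 (0.74), Me1 (0.16), Abcg1 (0.16), Pltp (0.14), Ctss (0.22), H2-Ab1 (0.49), H2-Eb1 (0.45), Mpeg1 (0.019), Folr2 (0.021), Timd4 (0.19), Csf1r (0.13), C1qb (0.19), Cdc20 (0.45) and Tpx2 (0.49). In C57BL/6J they were Cyp2c54 (0.11), Agxt2 (0.053), Kynu (0.010), Fabp1 (-0.16), Acot3 (-0.16) and Akr1d1 (0.12). In DBA/2J they were Cyp4a12a (0.12), Idi1 (-0.091), Hsp90b1 (-0.046), Nr1i2 (0.040), Glud1 (0.069), Sardh (0.087), Cbs (0.11), Slc27a1 (-0.13), Cyp2c70 (0.047), Slco1a1 (0.022), Cyp7a1 (-0.78), Nr1h3 (0.23), Ctss (0.087), Ifi30 (0.43), Csf1r (0.081) and C1qb (0.43). In SJL they were Srebf2 (-0.17), Xbp1 (-0.0061), Pklr (0.26), Cyp4a32 (-0.036) and Ucp1 (4.23).

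No paired analysis was possible because vegan and Mediterranean mice share no number. Leaving out the libraries low in nuclear RNA or in scaling factor, and the Malat1 and Neat1 covariate, were chosen after seeing the data. Genes under 5 CPM had a median SE of 0.27, against 0.11 above it, so depth limits what they can show.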

Other observations

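Other gene groups of the same livers were measured and did not pass the test. Of 21 cell cycle genes, 17 had a lower vegan mean (median log2 difference -0.23) and 4 had an unadjusted p under 0.05 with edgeR's quasi-likelihood test, all lower (all genes 2.18%). Cdc20, an activator of the anaphase-promoting complex, had a log2 difference of -1.06 (SE 0.34), and the spindle protein gene Tpx2 one of -0.98 (SE 0.33). Both were under 3 CPM in every library. The list's median was -0.71 in DBA/2J, -0.32 in C57BL/6J, -0.21 in SJL and 0.13 in A/J. Of 22 genes of the mitochondrial respiratory chain, 1 had a higher vegan mean (median -0.10), but 20 of 22 did in DBA/2J (median 0.30). Of 23 genes of NRF2 and glutathione, 3 had a higher vegan mean (median -0.09).

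Circadian clock genes had no common diet difference, with 10 of 19 higher on the vegan diet and a median of 0.002. In the test between strains 9 of 19 had an unadjusted p under 0.05, against 15.6% of all genes. That count ranged from 2 without Mediterranean mice 7 and 53 to 16 without the filter on low counts. It was 4 without the 4 libraries low in Malat1 and Neat1 (all genes 19.6%) and 4 without the SJL vegan mouse 64 (all genes 13.8%). The list's median was 0.91 in SJL. The labels used here give no hour of tissue collection, and its part was not tested.

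Of 14 markers of B and plasma cells, 11 had a higher vegan mean (median 0.23). Of 8 fat cell markers 7 had a lower vegan mean (median -0.97). Among them Cidea had a log2 difference of -3.01 (SE 1.16), with 13.5 CPM in Mediterranean mouse 38 and 10.5 CPM in Mediterranean mouse 8, and Ucp1 one of -2.42 (SE 1.44). All 6 tested red blood cell markers had a lower vegan mean over the 4 strains (median -0.29), and Hba-a2 had a log2 difference of -1.83 (SE 0.61). By strain 0 of the 6 were higher in C57BL/6J (median -1.27) and in SJL (median -0.79). In A/J 4 of 6 were higher (median 0.33), and in DBA/2J 4 of 6 (median 1.21). With edgeR's quasi-likelihood test between strains 5 of the 6 had an unadjusted p under 0.05 (all genes 15.6%).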
